A study of Mus musculus with 6 samples.

Results

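The genes described here encode the core of the inflammasome and of pyroptosis: the sensors Nlrp3, Nlrc4, Aim2 and Nlrp1b, the adaptor Pycard (ASC), the caspases Casp1, Casp4 and Casp8, and the pore-forming gasdermin Gsdmd. They were picked by gene symbol, and all 9 were found among the 28822 gene identifiers of the table. Bulk RNA sequencing was available for 6 libraries, 3 from co-cultures given BW723C86, an agonist of the serotonin receptor 5-HT2B, and 3 from co-cultures given the vehicle DMSO. In both groups the sequenced cells had been grown in the upper chamber of a Transwell, which passes soluble factors through a porous membrane, over HT22 cells, a line derived from mouse hippocampal neurons, after 2 h of oxygen-glucose deprivation of the latter, so the vehicle group is not an unstressed control. The series' title names these cells as bone marrow-derived macrophages (BMDMs), whereas its design text also allows the microglial line BV2. The sample labels read bmdm+ht22, which leaves unclear whether RNA of both cell types is meant. The sources used here do not give the strain, sex or age of the mice or the dose and duration of treatment. They do not say whether replicates came from separate cultures either, so the spread behind every p-value may be technical.

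Inflammasomes are cytosolic complexes in which a sensor, once triggered, gathers the adaptor ASC and the protease caspase-1. NLRP3 responds to ion fluxes and membrane damage, NLRC4 to bacterial proteins bound by NAIP partners, AIM2 to cytosolic double-stranded DNA and NLRP1B to its own cleavage or degradation. Active caspase-1 matures the precursors of IL-1 beta and IL-18 and cuts gasdermin D, whose fragments form the membrane pores of pyroptosis. The mouse gene Casp4 encodes the protease known as caspase-11, which binds bacterial lipopolysaccharide and cuts gasdermin D directly. Caspase-8, the initiator of death receptor apoptosis, restrains necroptosis and can itself cut gasdermin D. In macrophages, transcription of Nlrp3 and Il1b is raised by Toll-like receptor signalling in a step called priming, whereas most other components are present beforehand.

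The stretch upstream of the transcription start is shown for 5 of the genes, because Casp1 and Casp4 lie next to each other and Casp4 but not Casp1 passed the test, and because the other 3 hold matches to a motif searched. Each line gives the 250 bases before an annotated start, 5′ to 3′ on the strand of the gene, from RefSeq on build GRCm38.p6, a different build from those the submitters name. The windows are chr9:5298267-5298516 (plus strand) for Casp1, chr9:5308599-5308848 (plus) for Casp4, chr11:59541319-59541568 (plus) for the more upstream of 2 annotated Nlrp3 starts, chr7:127993868-127994117 (minus) for Pycard and chr1:173420354-173420603 (plus) for Aim2. Capitals mark matches to the NF-kB consensus in Casp4 and Nlrp3 and to the PU.1 motif GAGGAAGT, read on either strand, in Pycard and Aim2.
Casp1: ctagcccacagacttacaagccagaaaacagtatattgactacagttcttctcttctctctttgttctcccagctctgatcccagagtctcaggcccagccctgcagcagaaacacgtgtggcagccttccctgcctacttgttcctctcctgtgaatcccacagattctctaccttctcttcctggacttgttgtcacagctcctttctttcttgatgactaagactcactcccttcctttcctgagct
Casp4: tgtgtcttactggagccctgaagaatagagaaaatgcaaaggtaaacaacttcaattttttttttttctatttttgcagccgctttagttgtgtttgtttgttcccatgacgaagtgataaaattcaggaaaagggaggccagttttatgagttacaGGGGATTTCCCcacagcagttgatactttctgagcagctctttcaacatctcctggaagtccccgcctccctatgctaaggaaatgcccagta
Nlrp3: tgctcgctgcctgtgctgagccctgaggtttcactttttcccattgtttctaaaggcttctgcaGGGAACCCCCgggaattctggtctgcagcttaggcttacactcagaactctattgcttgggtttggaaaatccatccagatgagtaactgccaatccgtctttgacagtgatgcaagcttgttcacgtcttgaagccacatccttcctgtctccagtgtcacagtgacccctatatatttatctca
Pycard: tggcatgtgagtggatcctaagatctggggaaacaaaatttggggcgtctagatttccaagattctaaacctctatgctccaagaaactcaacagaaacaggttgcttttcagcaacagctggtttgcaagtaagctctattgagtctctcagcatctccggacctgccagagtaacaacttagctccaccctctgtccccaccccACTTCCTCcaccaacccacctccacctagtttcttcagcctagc
Aim2: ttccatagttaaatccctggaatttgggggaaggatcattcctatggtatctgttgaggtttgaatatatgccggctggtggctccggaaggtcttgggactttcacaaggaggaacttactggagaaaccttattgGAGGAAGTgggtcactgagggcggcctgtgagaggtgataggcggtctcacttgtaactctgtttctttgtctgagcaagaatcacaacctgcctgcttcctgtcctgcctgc

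In Casp4 the capitals cover 2 overlapping matches to the NF-kB consensus, beginning 93 and 92 bases before the start. In Nlrp3 a single match begins 186 bases before the start shown. The window of the other annotated Nlrp3 start held no match to any motif searched. The consensus, searched on both strands, occurred in 3.9% of all 32851 promoter windows of this length. GAGGAAGT occurred in 2.44% of them and, among the genes described, upstream of Aim2, Pycard and a start of Nlrp1b. No window of these genes held the kappa B site (0.14% of all windows), the interferon-stimulated response element (2.98%) or TTCNNNGAA, a STAT motif (7.02%). Windows were found for 8 of the 9 genes, all but Gsdmd, and numbered 11 in all. A match is a string of letters and is not a measured binding site, and its absence says only that these letters are not in the window.

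With BW723C86, 6 of the 9 genes fell, none rose and 3 did not pass the test (edgeR's quasi-likelihood test with Benjamini-Hochberg adjustment over all tested genes, threshold 0.05). The adaptor Pycard and the sensor Nlrc4 fell to 68% and 68.4% of their DMSO level. The sensor Nlrp3 and the caspase Casp8 fell to 80.6% and 79.4%, and Casp4 and Gsdmd to 83.9% and 85.7%. Casp1, Aim2 and Nlrp1b did not pass. Of all 15567 tested genes 42.0% passed the threshold, 20.7% lower and 21.3% higher. Among the 10092 tested genes with a mean of at least 5 CPM (counts scaled to library size, with TMM factors), 52.6% passed and 26.0% were lower. The median log2 fold change was -0.25 over the 9 genes and 0.00 over all tested genes. The DMSO and BW723C86 libraries did not overlap for 8 of the 9 genes, 6 of them lower with BW723C86. Of all tested genes 52.3% showed no overlap, and 26.0% were without overlap and lower. Among tested genes with a mean of at least 5 CPM these shares were 61.3% and 30.6%. In a stricter test, which asks for more than a 1.2-fold change, 2 of the 9 genes, Pycard and Nlrc4, passed (adjusted p = 0.00054 and 0.013 by edgeR), a share near the 20.6% of all tested genes that passed it (10.3% lower). In bulk samples fewer cells of a type and less RNA per cell cannot be told apart.

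**Figure D1:**
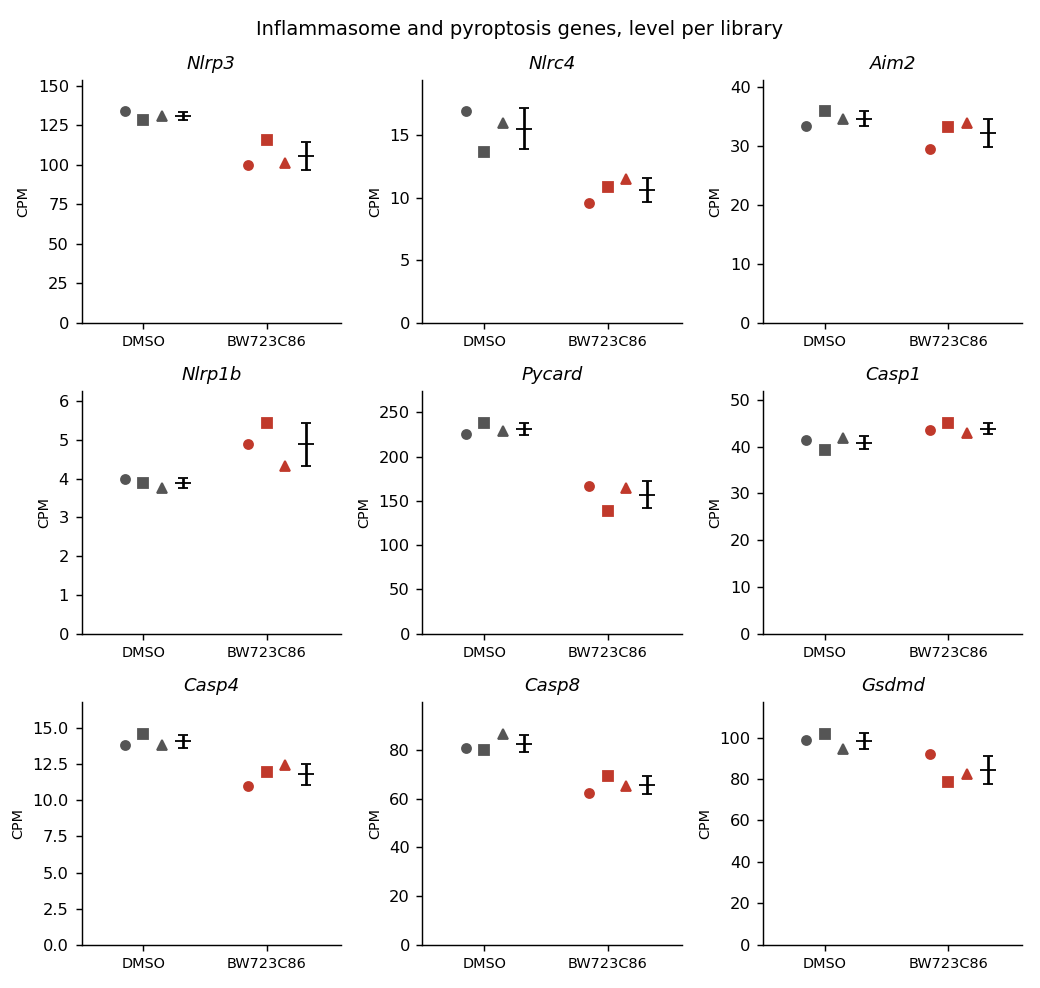
Level of each of the 9 genes in CPM (linear axis from 0) in the 3 DMSO libraries (grey) and the 3 BW723C86 libraries (red), with circle, square and triangle for replicates 1, 2 and 3, and mean ± SD beside them. Pycard, Nlrc4, Nlrp3, Casp8, Casp4 and Gsdmd are lower in every BW723C86 library than in any DMSO library, Casp1 and Nlrp1b are higher in every one, and Aim2 overlaps.

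Total counts per library ran from 58841307 to 75931615. Of 10 macrophage markers 4 rose, 5 fell and 1 did not pass, and their summed level was 37510 to 38380 CPM in DMSO and 32740 to 33960 CPM with BW723C86. Csf1r and Cd68 stood at 738 ± 2.46 and 744 ± 6.88 CPM in DMSO (SD, n = 3) and rose, Cd68 by 12.7%. Adgre1 (F4/80) fell from 689 ± 18.1 to 390 ± 23.4 CPM, Itgam from 2088 to 975.5 CPM and Msr1 from 435 to 227 CPM. All 9 tested of 12 neutrophil markers fell (summed level 2645 to 2720 CPM in DMSO and 713 to 817 CPM with BW723C86), as did all 8 monocyte markers (3871 to 3926 and 1248 to 1362 CPM) and 4 of the 5 tested mast cell and basophil markers (94.7 to 100 and 25.3 to 26.6 CPM). None of these markers was at 0 in every library. Lyz2, Mmp8 and Chil3 made up most of the macrophage, neutrophil and monocyte sums. Their means were 32880, 2417 and 3203 CPM in DMSO and 29410, 716 and 1105 CPM with BW723C86. The neutrophil genes S100a8, S100a9 and Ngp averaged 49.6, 54.3 and 72.5 CPM in DMSO and 4.7, 3.55 and 18.6 CPM with BW723C86. The neutrophil gene Elane was at 0.805 CPM in DMSO, and Camp, Mpo and Retnlg were too low to test. The monocyte gene Ly6c2 fell from 300 to 39.6 CPM. Of the 5 tested dendritic cell markers 3 rose and none fell (39.3 to 43.6 and 69.8 to 74.3 CPM). Lymphocyte markers summed to 1.3 to 2.57 CPM in DMSO and 0.157 to 0.405 CPM with BW723C86, with both tested genes lower and the T cell receptor gene Trac at 0. Of 10 neuronal markers, which could mark RNA of the HT22 cells, 7 were in the table. They summed to 7.42 to 8.32 and 11.2 to 15.1 CPM, with Map2 and Nefl at 0 and 1 of 2 tested genes, Uchl1, higher. Uchl1 alone, at 7.52 ± 0.228 and 13.05 ± 1.92 CPM (SD, n = 3), made up most of that sum. The part of these markers in the results on inflammasome genes was not tested.

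Among the sensors, Nlrp3 (ENSMUSG00000032691) had the highest level, in CPM and per kilobase, at 134, 128 and 131 CPM in the DMSO libraries and 100, 116 and 101 CPM with BW723C86. All 3 treated libraries lay below the lowest control library, with replicate 2 the closest to it. Nlrp3 fell by 0.31 on the log2 scale (SE 0.06, adjusted p = 0.00072 by edgeR). Nlrc4 (ENSMUSG00000039193) stood at 16.9, 13.7 and 16 CPM in DMSO and at 9.58, 10.9 and 11.5 CPM with BW723C86. The controls of Nlrc4 spread the most of the 9 genes in relative terms (SD 10.7% of the mean, against 2.12% to 4.33% for the others), yet the groups did not overlap, and the gene fell by 0.55 on the log2 scale (SE 0.10, adjusted p = 0.00089 by edgeR).

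Aim2 (ENSMUSG00000037860), the DNA sensor, was at 33.4, 35.9 and 34.7 CPM in DMSO and 29.4, 33.3 and 33.9 CPM with BW723C86. Its groups overlapped and its log2 fold change of -0.11 (SE 0.07) did not pass (adjusted p = 0.23 by edgeR). Nlrp1b (ENSMUSG00000070390) was the lowest of the 9 genes on both scales, with 4, 3.9 and 3.77 CPM in DMSO and 4.88, 5.45 and 4.34 CPM with BW723C86. Although every treated library was above every control library, its log2 fold change of 0.33 (SE 0.14) did not pass (adjusted p = 0.081 by edgeR). Its copy Nlrp1a, at 5.44 ± 0.674 and 6.01 ± 0.323 CPM, did not pass either (adjusted p = 0.43 by edgeR, n = 3 per group), and reads may be shared between such similar genes.

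The adaptor had the highest DMSO level, in CPM and per kilobase, and the smallest p of the 9 genes. Pycard (ENSMUSG00000030793), whose protein ASC links most sensors to caspase-1, was at 225, 239 and 229 CPM in DMSO and at 167, 139 and 165 CPM with BW723C86. Replicate 2 of the treated group was the lowest, and all 3 lay far below the controls relative to the spread of either group. Pycard fell by 0.56 on the log2 scale (SE 0.06, adjusted p = 1.4e-05 by edgeR). Without BW723C86 replicate 2 it fell by 0.49 (adjusted p = 3.1e-08 by edgeR). An unclassified antisense transcript, Gm45205, overlaps 12.8% of its annotated exon length and had counts of 16 to 66, against 9580 to 17830 for Pycard. Whether strand was used in counting is unknown.

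Of the 3 caspase genes, Casp4 and Casp8 fell and Casp1 did not pass. Casp1 (ENSMUSG00000025888), the protease that matures IL-1 beta and IL-18, was at 41.4, 39.4 and 41.9 CPM in DMSO and at 43.6, 45.2 and 42.9 CPM with BW723C86. The treated libraries were all slightly above the controls, and the log2 fold change of 0.10 (SE 0.06) did not pass (adjusted p = 0.16 by edgeR). Casp4 (ENSMUSG00000033538), encoding the lipopolysaccharide-binding caspase, was at 13.8, 14.6 and 13.8 CPM in DMSO and 11, 12 and 12.5 CPM with BW723C86, with no overlap. Casp4 fell by 0.25 on the log2 scale (SE 0.09, adjusted p = 0.031 by edgeR). That call was lost without DMSO replicate 1 (adjusted p = 0.067), DMSO replicate 2 (0.1), DMSO replicate 3 (0.064) or BW723C86 replicate 1 (0.099), and with DESeq2 (0.053).

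Fold changes varied with the GC content of the transcript. Over all tested genes with a mean of at least 5 CPM, the median log2 fold change was -0.13 in the tertile of lowest GC content and 0.08 in that of highest GC content. The lowest tertile ended at 46.45%, and Casp4, Casp1, Aim2, Pycard and Nlrc4 lay in it. In the longest annotated transcript of each gene, Casp4 and Casp1 have the lowest GC content of the 9 genes, 38.1% and 41.1%, and Gsdmd the highest, 54.4%. For Pycard that transcript has 3800 bases, and its GC content (45.6%) and the trends removed below rest on it. With the GC and length trends of each library removed, an alternative chosen after seeing the data, Casp4 was at a log2 fold change of -0.04 (adjusted p = 0.75 by limma) and Casp1 rose by 0.29 (adjusted p = 0.00018 by limma), while each of the other 7 genes kept its call. Aim2 was then at -0.03.

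The ratio of the neighbouring genes Casp1 and Casp4 within a library does not depend on how libraries are scaled. The count of Casp1 was 3, 2.7 and 3.03 times that of Casp4 in the DMSO libraries and 3.96, 3.78 and 3.45 times with BW723C86. The ranges did not overlap, and the mean ratio was 1.28-fold higher with BW723C86 (exact permutation p = 0.1, two-sided, the smallest that 3 against 3 allow). The next gene along, Casp12, had counts of 20, 0 and 8 in DMSO and 13, 23 and 27 with BW723C86, too few to compare (adjusted p = 0.2 by edgeR). The count of Pycard was 5.44, 6.05 and 5.47 times that of Casp1 in DMSO and 3.83, 3.08 and 3.85 times with BW723C86, again without overlap (exact permutation p = 0.1, two-sided). Both ratios were chosen after their values were seen.

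Casp8 (ENSMUSG00000026029) was at 81.1, 80.2 and 86.8 CPM in DMSO and 62.4, 69.4 and 65.2 CPM with BW723C86. All treated libraries lay below the controls, and it fell by 0.33 on the log2 scale (SE 0.06, adjusted p = 0.00034 by edgeR). The executioner Gsdmd (ENSMUSG00000022575) was at 98.9, 102 and 94.5 CPM in DMSO and 92, 78.5 and 82.6 CPM with BW723C86. Its groups came closest at DMSO replicate 3 and BW723C86 replicate 1. Gsdmd fell by 0.22 on the log2 scale (SE 0.06, adjusted p = 0.0091 by edgeR), and without DMSO replicate 2 it did not pass (-0.20, adjusted p = 0.056).

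**Figure D2:**
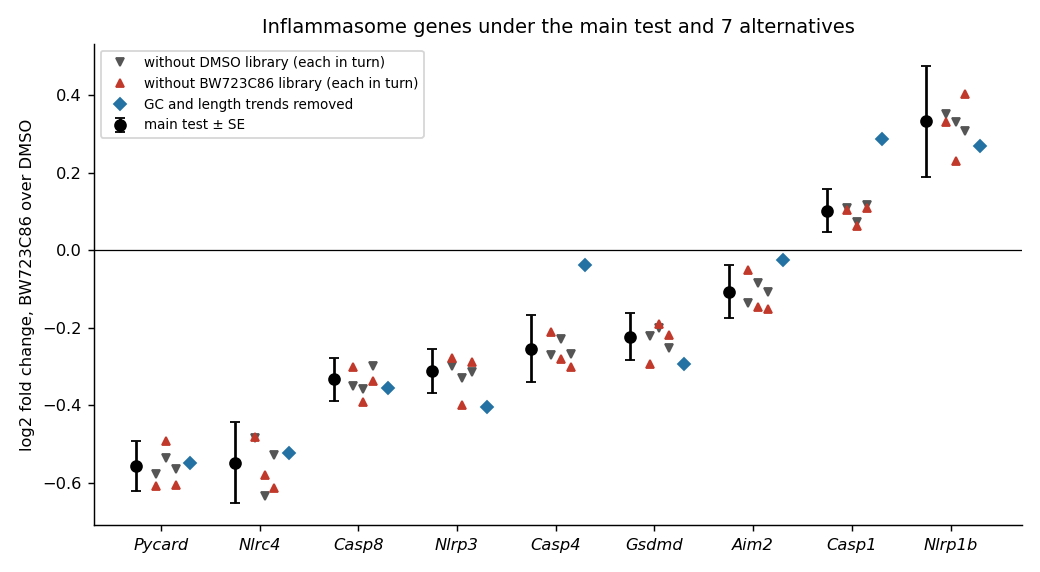
Log2 fold change, BW723C86 over DMSO, of each of the 9 genes: the main test with its SE (black), each DMSO library (grey) or BW723C86 library (red) left out in turn, and GC and length trends removed (blue). All points of Pycard, Nlrc4, Casp8, Nlrp3 and Gsdmd lie between -0.19 and -0.63, whereas Casp4 moves to -0.04 and Casp1 to 0.29 when the trends are removed.

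The SD as a share of the mean was larger in the treated libraries than in the controls for 7 of the 9 genes, all but Nlrc4 and Casp1, and BW723C86 replicate 2 lay apart from the other treated libraries with GC content. Its median deviation from the mean of the other treated libraries was 0.11 on the log2 scale for genes in the tertile of lowest GC content and -0.14 for those in the highest. That of BW723C86 replicate 1 was -0.06 and 0.11, against a mean that includes replicate 2. For the 9 genes the deviation of replicate 2 on the log2 scale from the mean of replicates 1 and 3 ran from -0.26 for Pycard and -0.15 for Gsdmd to 0.2 for Nlrp3 and 0.24 for Nlrp1b. The same 6 genes fell without this library, when 7153 of all 15864 tested genes passed. Nlrp3 was then at -0.40, Casp8 at -0.39 and Gsdmd at -0.19 on the log2 scale. The part of GC content in these results was not tested beyond the alternative given above.

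Per kilobase of the longest annotated transcript, levels can be compared between genes. In DMSO the order was Pycard (60.8 ± 1.77 CPM per kb, SD, n = 3), Gsdmd (54.9 ± 2.1), Nlrp3 (32.6 ± 0.689), Casp8 (32 ± 1.38), Casp1 (27.3 ± 0.879), Aim2 (12.2 ± 0.44), Casp4 (7.41 ± 0.24), Nlrc4 (3.29 ± 0.352) and Nlrp1b (0.9 ± 0.0274). Nlrp3 and Casp8 did not differ beyond their spread. With BW723C86 the order became Gsdmd (47.1 ± 3.87 CPM per kb), Pycard (41.3 ± 4.11), Casp1 (29.3 ± 0.782), Nlrp3 (26.2 ± 2.17) and Casp8 (25.4 ± 1.37), and the order of the 4 least abundant genes stayed as it was. Neither Gsdmd and Pycard nor Nlrp3 and Casp8 were separated by more than their spread. The annotated Pycard transcript used here has 3800 bases, and a shorter one would raise its level. Its place below Gsdmd with BW723C86, and their lack of separation, therefore rest on that length. Relative to all 15567 tested genes, the level of Pycard in CPM exceeded 95.7% of them in DMSO and 93.2% with BW723C86, and that of Nlrp1b 32.7% and 35.4%.

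The genes whose pattern over the 6 libraries was most like that of 3 of the genes were sought among 10086 genes with a mean of at least 5 CPM, by the root-mean-square difference in log2 CPM relative to the DMSO mean. March1, encoding a membrane ubiquitin ligase that acts on MHC class II, was closest to Nlrp3 (difference 0.0147, log2 fold change -0.31), before Rwdd1 (0.0162) and Emsy (0.0185). Sec11a, a signal peptidase subunit gene, was closest to Casp1 (0.0116, log2 fold change 0.09), before the transcription factor gene Myc (0.0137) and Git2 (0.0155). Selenon, a selenoprotein gene, was closest to Gsdmd (0.0174, log2 fold change -0.22), before Mob3a (0.0295) and Nufip1 (0.0302).

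Larger changes were found among the substrates and antagonists of the pathway. Of 7 such genes 5 fell, 1 rose and 1 did not pass, with a median log2 fold change of -1.01. Il1b, encoding the precursor of IL-1 beta, was at 8.67, 10.3 and 16.4 CPM in DMSO and 1.76, 2.22 and 2.55 CPM with BW723C86. DMSO replicate 3 was high, yet all treated libraries lay far below every control, and Il1b fell by 2.44 on the log2 scale (SE 0.24, adjusted p = 1.5e-05 by edgeR). Il18, the precursor of IL-18, was at 8.65, 8.01 and 9.07 CPM in DMSO and 4.66, 4.17 and 3.94 CPM with BW723C86, a fall by 1.01 on the log2 scale (SE 0.12, adjusted p = 2.2e-05 by edgeR). Il1a, the sister cytokine that caspase-1 does not cut, fell by 0.84 (adjusted p = 6e-06 by edgeR).

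Genes that oppose these cytokines went both ways. The receptor antagonist Il1rn stood at 291, 286 and 294 CPM in DMSO and 46.8, 45.8 and 44.1 CPM with BW723C86, and fell by 2.67 on the log2 scale. The decoy receptor gene Il1r2 fell from 56.4 ± 1.77 to 17.6 ± 1.14 CPM (SD, n = 3). By contrast Il18bp, whose product captures IL-18, was at 5.34, 5.07 and 5.8 CPM in DMSO and 8.62, 10.2 and 9.48 CPM with BW723C86, and rose by 0.80 on the log2 scale (SE 0.12, adjusted p = 9.8e-05 by edgeR).

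**Figure D3:**
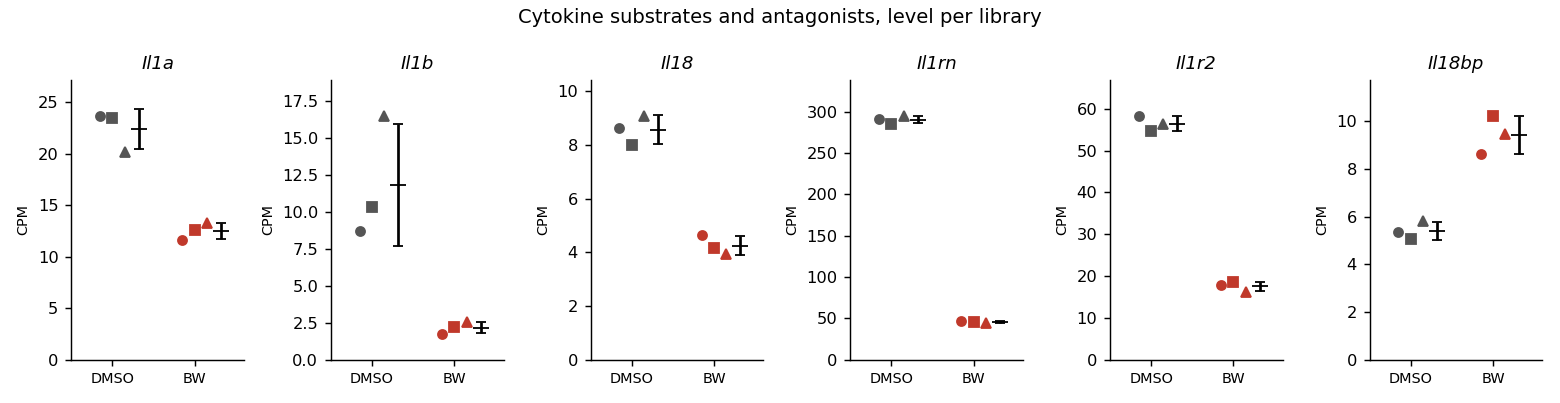
Level in CPM (linear axes from 0) of 3 cytokine genes (Il1a, Il1b, Il18) and 3 genes that oppose them (Il1rn, Il1r2, Il18bp) in the DMSO (grey) and BW723C86 (red) libraries, with circle, square and triangle for replicates 1, 2 and 3 and mean ± SD beside them. In no panel do the groups overlap, and only Il18bp is higher with BW723C86.

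Of 92 other genes of the pathway, listed by role, 91 were in the table, and 86 had counts high enough for the test. Among those, 24 rose, 28 fell and 34 did not pass, so that 60.5% passed, against 42.0% of all tested genes and 52.6% of the tested genes averaging 5 CPM or more, and their median log2 fold change was 0.05. Without BW723C86 replicate 2, 61 of 85 passed in place of 52 of 86, beside 7153 of all 15864 tested genes.

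**Figure D4:**
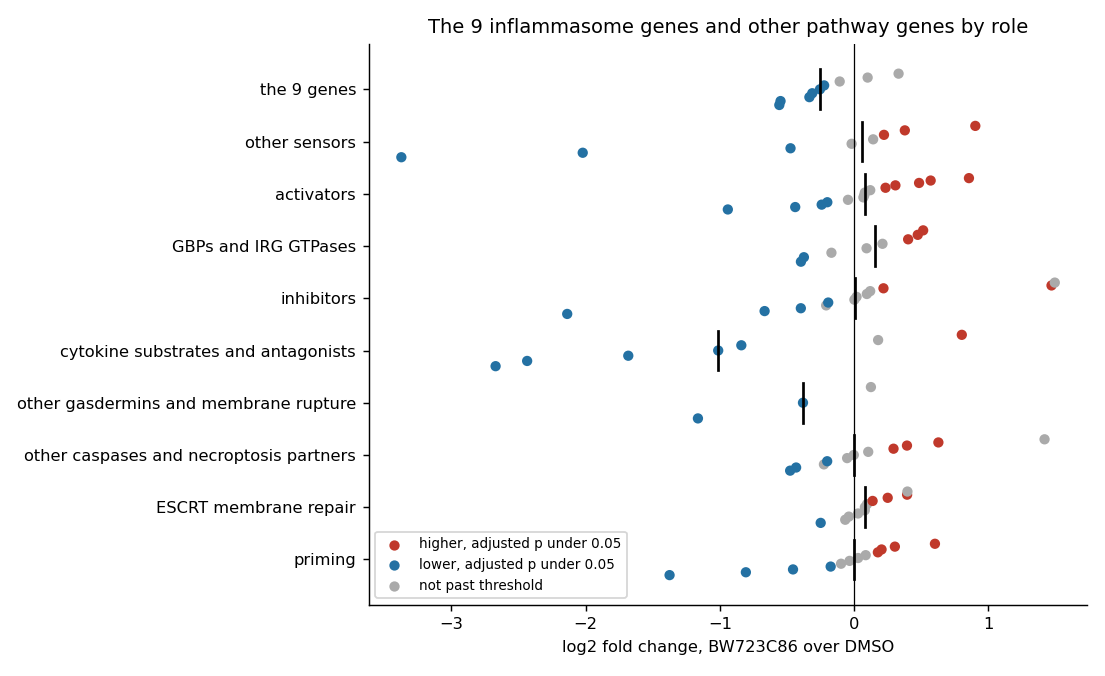
Log2 fold change, BW723C86 over DMSO, of the 9 genes and of the 86 other tested pathway genes by role, with red for genes that rose, blue for genes that fell, grey for those that did not pass and a black bar at each median. The 9 genes lie between -0.56 and 0.33, while cytokine genes and antagonists reach -2.67, and the point at the far left is Nlrp12, whose fold rests on very few counts.

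Other sensors were split, with 3 higher, 3 lower and 2 not past of 8 tested. Naip2, whose protein hands bacterial secretion rod proteins to NLRC4, was at 129, 132 and 129 CPM in DMSO and 85.9, 104 and 90.8 CPM with BW723C86, and fell by 0.47 on the log2 scale (SE 0.06, adjusted p = 4.4e-05 by edgeR). The flagellin receptor genes Naip5 and Naip6 rose by 0.22 and 0.38. Naip5 did not pass without DMSO replicate 3 (0.20, adjusted p = 0.058) or with libraries scaled by their totals alone (0.15, adjusted p = 0.085), and reads may be shared among the near-identical Naip copies. Mefv, encoding the sensor pyrin, had counts of 224, 152 and 182 in DMSO and 18, 31 and 69 with BW723C86, and fell by 2.02 on the log2 scale, and fell by 2.78 without BW723C86 replicate 3, the treated library with the highest count. Nlrp12 had counts of 23, 23 and 17 in DMSO and 0, 0 and 5 with BW723C86, and fell (adjusted p = 0.015 by edgeR, and above the threshold without DMSO replicate 1, DMSO replicate 2 or BW723C86 replicate 1, at 0.052, 0.079 and 0.06). Nlrp10 rose from 1.71 ± 0.56 to 3.21 ± 0.509 CPM (SD, n = 3).

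Among 14 genes that promote activation, 5 rose, 4 fell and 5 did not pass. Kcnk6, encoding the potassium channel TWIK2, and P2rx4, an ATP-gated channel gene, rose by 0.86 and 0.57 on the log2 scale, and Panx1, a pannexin channel gene, by 0.48. P2rx7, encoding the ATP receptor that triggers NLRP3, rose by 0.23 (35.5 ± 1.6 to 41.8 ± 1.53 CPM, SD, n = 3), and with libraries scaled by their totals alone it did not pass (0.16, adjusted p = 0.056 by edgeR). Txnip, encoding a thioredoxin-binding protein, was at 1415, 1410 and 1404 CPM in DMSO and 719, 741 and 745 CPM with BW723C86, and fell by 0.94. Brcc3, encoding the enzyme that deubiquitinates NLRP3, fell by 0.44, and by 0.19 with GC and length trends removed, and the kinase gene Ptk2b fell by 0.24. Nek7, encoding the kinase that bridges NLRP3 subunits, was at 125, 126 and 128 CPM in DMSO and 126, 147 and 128 CPM with BW723C86 and did not pass (adjusted p = 0.3 by edgeR). Its log2 fold change was 0.08, and -0.01 without BW723C86 replicate 2, the library in which it was high, whereas with GC and length trends removed it passed (0.24, adjusted p = 6.4e-05 by limma).

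Interferon-inducible GTPases, some of which expose bacterial lipopolysaccharide to the Casp4 product, were split: 3 of 8 rose, 2 fell and 3 did not pass. Gbp2, Irgm1 and Gbp3 rose by 0.52, 0.47 and 0.40 on the log2 scale, and Igtp and Gbp7 fell by 0.40 and 0.37. With GC and length trends removed Gbp7 fell by 0.23. Gbp and Irg genes have similar copies among which reads may be split.

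Of 12 tested genes that restrain inflammasomes or caspase-8, 4 fell, 2 rose and 6 did not pass. Serpinb1a, encoding an inhibitor of neutrophil serine proteases and of inflammatory caspases, had counts of 3326, 2422 and 3160 in DMSO and 505, 701 and 563 with BW723C86, and fell by 2.14 on the log2 scale (SE 0.07, adjusted p = 8.7e-11 by edgeR). Cflar, encoding the caspase-8 partner cFLIP, and Birc3, encoding an inhibitor of apoptosis, fell by 0.40 and 0.67. Nlrc3, a negative regulator of innate sensing, rose from 1.83 ± 0.294 to 5.08 ± 0.215 CPM (SD, n = 3). Dpp9, encoding the peptidase that holds NLRP1 inactive, rose by 0.22, and by 0.15 with library totals alone or with GC and length trends removed.

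Other gasdermins and genes of membrane rupture were few. Gsdme, encoding another pore-forming gasdermin, was at 28.6, 25.8 and 26.4 CPM in DMSO and 10.4, 11.9 and 13.8 CPM with BW723C86. It fell by 1.16 on the log2 scale (SE 0.10, adjusted p = 7.6e-07 by edgeR), with no overlap. Ninj1, which ruptures the membrane of dying cells, was at 117, 126 and 118 CPM in DMSO and 147, 114 and 132 CPM with BW723C86, overlapping, and did not pass (adjusted p = 0.21 by edgeR), although without BW723C86 replicate 2 it did (0.20, adjusted p = 0.0027). The alarmin gene Hmgb1 fell by 0.38, and by 0.24 with GC and length trends removed. Gsdma, Gsdmc and Pjvk were too low to test.

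Among 11 other caspase and necroptosis genes, 3 rose, 3 fell and 5 did not pass. Mlkl, encoding the pore-forming protein of necroptosis, and Fadd, encoding the adaptor of caspase-8, rose by 0.39 and 0.29 on the log2 scale. Casp6 and Casp2 fell by 0.43 and 0.20. Fadd did not pass without DMSO replicate 3 (adjusted p = 0.078), BW723C86 replicate 1 (0.054) or BW723C86 replicate 3 (0.077), with library totals alone (0.052) or with GC and length trends removed (0.06), nor Casp2 without DMSO replicate 1 (0.056).

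For the ESCRT genes, whose products shed membrane punctured by gasdermin, 3 rose, 1 fell and 7 did not pass of 11. Tsg101 rose by 0.40 and Vps4a by 0.25 on the log2 scale, and Vps4b fell by 0.25. With GC and length trends removed Vps4a rose by 0.16 and Vps4b fell by 0.12. Pdcd6ip, encoding ALIX, rose by 0.14, a call lost without DMSO replicate 1, 2 or 3 (adjusted p = 0.058, 0.067 and 0.094) or BW723C86 replicate 3 (0.064), and with library totals alone (0.07, adjusted p = 0.27).

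Priming genes gave 4 higher, 4 lower and 4 not past of 12. Tlr2 and Tlr4, encoding receptors for bacterial lipoproteins and lipopolysaccharide, fell by 1.37 and 0.81 on the log2 scale, and the transcription factor gene Irf1 by 0.45. Irf8, encoding a factor that drives Naip genes, fell by 0.17, and did not pass without DMSO replicate 2 (adjusted p = 0.056). The adaptor genes Ticam1 and Myd88 rose by 0.60 and 0.30, and Traf6 by 0.21, the last not without DMSO replicate 1 (adjusted p = 0.07) or DMSO replicate 2 (0.067), nor with library totals alone (0.13, adjusted p = 0.12). With GC and length trends removed Myd88 rose by 0.20 and Irf8 fell by 0.28.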

How the data were processed

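Poly(A)-selected, strand-marked libraries were sequenced as paired ends, per the labels' protocols. The values deposited by the authors are estimated counts, all whole numbers. The submitters' processing notes name fastp, HISAT2, StringTie, edgeR, GRCm39 and GRCh38 without role or version, and the sources used here do not say if counting used strand. The value 4 occurs 4613 times, against 2904 for 3 and 2552 for 5, so a fragment may be worth several counts. Names came from GENCODE M21 for 27005 identifiers. Older names were matched through RefSeq synonyms.

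edgeR 4.0.16 (R 4.3.3, robust quasi-likelihood fit, TMM, default filter by group) was fitted to all 6 libraries without covariates, two-sided, over 15567 genes, and SE is the log2 fold change over the root of F. The code was tested on simulated data. Alternatives used DESeq2 1.42.0 and limma 3.58.1. In edgeR they used DESeq2 size factors, upper-quartile scaling, no filter, a filter of 1 CPM in 3 libraries, a non-robust fit and counts divided by 4. The rest are given above or below. With counts divided by 4, the same 6 of the 9 genes passed, as did 6632 of all 13266 genes then tested. Pathway genes named are, by role, up to 3 of smallest p in each direction plus a fixed panel, of which some are not reported here. The genes, lists and some motifs (NF-kB consensus, PU.1) were chosen with results of these data known.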

Additional observations from a re-analysis of the deposited data

How the results depend on the processing

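Nlrc4, Pycard, Aim2 and Nlrp1b kept their direction and their side of the threshold under all 18 alternatives, with log2 fold changes of -0.63 to -0.48, -0.63 to -0.49, -0.18 to -0.03 and 0.23 to 0.40. Nlrp3 (-0.40 to -0.28) and Casp8 (-0.41 to -0.30) lost their call only when more than a 1.2-fold change was required, and the losses of Casp4 and Gsdmd and the gain of Casp1 are given in the text above. Leaving out each library in turn left 4 to 6 of the 9 genes past the threshold. Over all tested genes, the number past it then ran from 5387 of 15913 (without DMSO replicate 1) to 7153 of 15864 (without BW723C86 replicate 2). When more than a 1.2-fold change was required, 3208 of all tested genes, 2 of the 9 (both lower) and 33 other pathway genes passed, a stricter test by construction. Nek7 ran from -0.013 without BW723C86 replicate 2 to 0.12 without BW723C86 replicate 1 when libraries were left out, and the cause was not tested. With library totals in place of TMM, which moved the median of all genes to -0.07, the log2 ratio of summed macrophage markers was -0.26 (-0.19 with TMM), of monocyte markers -1.67 (-1.59) and of mast cell and basophil markers -1.98 (-1.91). Replicate numbers did not pair the libraries (correlation of same-numbered deviations -0.03, 0.02 and 0.03). With the replicate number as a block, 6179 of all tested genes, the same number of the 9 genes (6, all lower) and 50 other pathway genes passed. Pdcd6ip lost its call there (adjusted p = 0.051). Of the named pathway genes, 33 of 51 kept direction and call under every alternative. The lowest of the 9 genes, Nlrp1b, had as few as 235 counts in a library and the largest SE (0.14), and the part of depth in its result was not tested.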
